A study of Mus musculus with 6 samples.

Results

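Scavenger receptors are surface proteins with which macrophages take up modified lipoproteins, dying cells and microbes, and they bind many unrelated ligands that carry negative charge. Mannose and other C-type lectin receptors recognise sugars on microbes and on the body's own glycoproteins, and some of them signal through the kinase SYK while others mainly carry cargo into the cell. In tissues, sets of these receptors are used to mark resident macrophages and macrophages exposed to type 2 cytokines. The receptors described here were 10 genes chosen by name out of the 55291 genes in the count table: the class A receptors Msr1 and Marco, the class B receptors Cd36 and Scarb1, the large endocytic receptor Stab1, the scavenger receptor cysteine-rich proteins Cd163 and Cd5l, and the C-type lectins Mrc1, Clec7a and Clec4n.

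Their transcripts were measured by RNA-seq in bone marrow-derived macrophages (BMDMs), primary cells grown out of flushed marrow. The groups were 3 WT mice (libraries 1, 5 and 6) and 3 PYK2 KO mice (libraries 2, 3 and 4), all C57BL/6, with 1 library per mouse. PYK2 is a tyrosine kinase encoded by Ptk2b, and the knockout was present in the whole animal. Every culture was kept for 7 days in medium with L929-conditioned supernatant as the source of M-CSF and received no polarizing cytokine, so the WT cells are the only control, and the ages of the mice were not given in the sources used here. The libraries were made by a bulk form of MARS-seq, which reads the 3′ ends of transcripts, and held 2857097 to 3917207 counts each. Ptk2b had 568 to 737 counts in the WT and 64 to 71 in the PYK2 KO libraries. All 8 macrophage markers checked were present, with at least 81 counts in any library. Of 29 markers of dendritic, B, T, erythroid, stromal and endothelial cells, 19 had 0 counts in all libraries and 3 passed the low-count filter. Their highest count in any library was 80, for the B cell marker Cd79b in WT 1.

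No member passed the test between genotypes. Among the 9 members with enough counts to be tested, 6 had a higher and 3 a lower fitted level in PYK2 KO cells, and 0 reached an adjusted p-value under 0.05 with edgeR's quasi-likelihood test, with DESeq2 or with limma. Among all 9815 genes tested with edgeR, 0.255% did. Without adjustment, 3 of the 9 members had an edgeR p-value under 0.05 (Clec4n and Cd36 higher, Stab1 lower), against 6.03% of all genes. DESeq2 gave 1 (Stab1) and limma 2 (Cd36 and Stab1), and the share of all genes with these tools is not given here. The median log2 fold change of the 9 was 0.14, and that of all tested genes was 0.0019. Leaving out single libraries gave medians from 0.04 without WT 5 to 0.18 without PYK2 KO 3, with 0.09 without PYK2 KO 4. The sizes behind these figures were uneven: Clec4n was high in a single PYK2 KO mouse, Cd36 varied widely among mice of the same genotype, and Stab1 was lower in each PYK2 KO mouse by a small amount, short of the threshold. Without a low-count filter Cd36 and Clec4n passed the threshold, 2 of the 10 members, beside 0.852% of the 18659 genes then tested. In bulk RNA of this kind, fewer cells that carry a receptor and less receptor RNA per cell cannot be told apart.

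Promoter sequence was read for the members whose levels varied most between mice or did not overlap between genotypes. RefSeq windows on GRCm38.p6 matched 7 of the 10 members, all but Msr1, Scarb1 and Clec4n. Each line below gives the 120 bases directly before the RefSeq start, 5′ to 3′ on the gene's strand. The capitals mark the PU box core GAGGAA (or its complement TTCCTC), which is known to bind the macrophage factor PU.1, and the Maf half-site TGCTGA (or TCAGCA). Cd36 lies at chr5:17835897-17836016 (minus strand), Clec7a at chr6:129472780-129472899 (minus), Mrc1 at chr2:14229294-14229413 (plus), Cd5l at chr3:87357761-87357880 (plus) and Stab1 at chr14:31168642-31168761 (minus).
Cd36: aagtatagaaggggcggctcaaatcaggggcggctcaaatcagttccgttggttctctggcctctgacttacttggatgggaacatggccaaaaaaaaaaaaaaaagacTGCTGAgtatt
Clec7a: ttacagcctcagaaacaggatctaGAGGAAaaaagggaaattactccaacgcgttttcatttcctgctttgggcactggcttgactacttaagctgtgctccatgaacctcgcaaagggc
Mrc1: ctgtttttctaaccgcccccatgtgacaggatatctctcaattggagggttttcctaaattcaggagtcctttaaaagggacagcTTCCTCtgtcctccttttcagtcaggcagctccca
Cd5l: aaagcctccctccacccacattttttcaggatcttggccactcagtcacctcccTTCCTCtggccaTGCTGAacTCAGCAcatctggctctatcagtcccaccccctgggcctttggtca
Stab1: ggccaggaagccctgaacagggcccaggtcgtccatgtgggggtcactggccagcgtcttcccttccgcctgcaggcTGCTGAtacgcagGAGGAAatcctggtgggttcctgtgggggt
The RefSeq start of Cd36 lies inside the longer gene that GENCODE annotates, which has further starts upstream. The bases shortly after this start were not found in a GENCODE transcript, unlike those of the other printed genes. Searched on both strands over 250 bases, the PU box core was found in 5 of the 7 matched members (Cd5l, Clec7a, Marco, Mrc1 and Stab1) and in 23.3% of the 32851 windows of all genes. Mrc1 held 3 copies. The Maf half-site was found in 3 of the 7 (Cd36, Cd5l and Stab1) and in 16.1% of all windows. In the Cd5l window 2 half-sites face each other, 54 and 46 bases before the start, an arrangement with a gap of 1 or 2 bases that was found in 4 windows in all (0.0122%). The 2 motifs do not overlap in the printed lines. These are matches of letters, chosen after the promoters had been read, and no binding was measured.

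**Figure D1:**
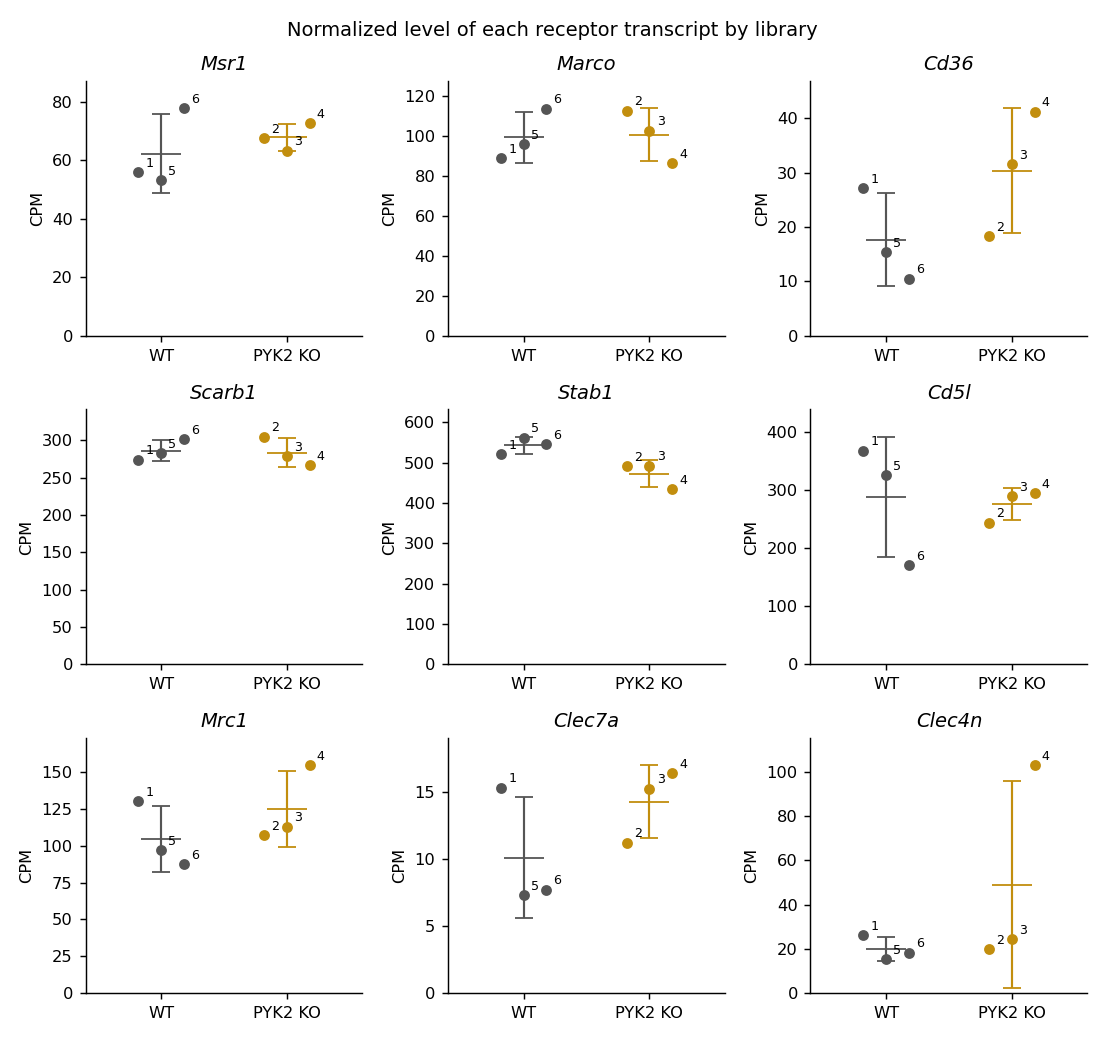
CPM (counts scaled to the TMM-adjusted library total over the tested genes) of each member in each library, by genotype, with the mean and SD of the 3 mice as a line and bar; each panel has its own axis. The PYK2 KO 4 library stands at 103 CPM for Clec4n while the other libraries lie between 15.4 and 26.0 CPM, and Stab1 is the only tested member without overlap between genotypes.

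The levels that follow are in CPM, which scales a gene's counts to the library's total over the tested genes, multiplied by its TMM factor. They were not divided by transcript length and are compared between libraries and not between genes. Each mean is given with its SD over 3 mice, each log2 fold change (PYK2 KO over WT) with its SE, and the p-values are from edgeR's quasi-likelihood test adjusted by Benjamini-Hochberg over all 9815 genes.

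For the class A receptors no difference larger than the spread between mice was found. Msr1 (chr8:39581685-39642673, minus strand, GRCm38), a trimeric receptor for modified lipoproteins, stood at 55.9, 53.2 and 77.8 CPM in WT 1, 5 and 6 and at 67.7, 63.4 and 72.7 CPM in PYK2 KO 2, 3 and 4. WT 6 was the highest library and the other WT libraries the lowest, so the PYK2 KO values lay inside the WT range. The means were 62.3 ± 13.5 and 67.9 ± 4.67 CPM, with a log2 fold change of 0.14 (SE 0.13, 95% interval -0.14 to 0.42, adjusted p = 0.940). The log2 fold change ran from 0.04 without WT 5 to 0.32 without WT 6. The fit without WT 6 had an adjusted p = 0.646, the lowest over all alternatives, which reached 1.000.

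Marco (chr1:120474538-120505024, minus strand), which binds bacteria and particles, had 88.9, 95.7 and 114 CPM in WT 1, 5 and 6. In PYK2 KO 2, 3 and 4 it had 113, 103 and 86.4 CPM. The genotypes covered nearly the same range. The fitted difference was 0.02 on the log2 scale (SE 0.11, 95% interval -0.22 to 0.26, adjusted p = 0.994), and its sign turned when WT 1, WT 5 or PYK2 KO 2 was left out (-0.07 to 0.12 over all omissions).

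The class B receptors contrasted in their spread. Cd36 (chr5:17781690-17888801, minus strand) takes up fatty acids and oxidized lipoproteins. It had 106, 55 and 30 counts in WT 1, 5 and 6 and 57, 91 and 138 counts in PYK2 KO 2, 3 and 4, which corresponds to 27.1, 15.4 and 10.5 CPM and to 18.3, 31.5 and 41.1 CPM. The highest libraries were PYK2 KO 4, PYK2 KO 3 and WT 1, and WT 1 lay above PYK2 KO 2, so the genotypes overlapped. Mean levels were 17.7 ± 8.51 CPM for WT and 30.3 ± 11.5 CPM for PYK2 KO cells. The log2 fold change was 0.74 (SE 0.29, 95% interval 0.13 to 1.36), or 1.67-fold. edgeR gave p = 0.0206 before and 0.697 after adjustment, and the two-sided exact permutation test of log2 CPM gave p = 0.2. It was 0.45 without PYK2 KO 4 and 1.21 without WT 1. The biological coefficient of variation, the spread between mice of 1 genotype beyond counting noise as fitted by edgeR, was 22.6% for Cd36, above that of 98.8% of the tested genes, whose median was 9.07%.

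Scarb1 (chr5:125277087-125341094, minus strand), the receptor for high-density lipoprotein, was at 274, 282 and 301 CPM in WT 1, 5 and 6. The PYK2 KO libraries 2, 3 and 4 gave 304, 278 and 266 CPM. Both genotypes thus held the same narrow range, with a coefficient of variation above that of 30.2% of the tested genes. Its log2 fold change was -0.01 (SE 0.08, 95% interval -0.19 to 0.17, adjusted p = 0.994). Without WT 6 or PYK2 KO 4 its sign turned, with values between -0.07 and 0.03 over all omissions.

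Stab1 (chr14:31139013-31168641, minus strand), a multidomain receptor of tissue macrophages and sinusoidal endothelium that clears matrix proteins and modified lipoproteins, was the only tested member whose genotypes did not overlap. It had 2037, 2007 and 1558 counts in WT 1, 5 and 6 and 1530, 1421 and 1456 counts in PYK2 KO 2, 3 and 4. In CPM these were 520, 562 and 546 against 491, 492 and 434, with the lowest WT library above the highest PYK2 KO library. Stab1 as 1 of 9 tested members is 11.1%, and 10.2% of all tested genes had no overlap between genotypes. The means were 543 ± 21.0 and 472 ± 33.3 CPM. The log2 fold change was -0.20 (SE 0.08, 95% interval -0.38 to -0.03), p = 0.0273 before and 0.727 after adjustment in the edgeR fit, and the two-sided exact permutation test gave p = 0.1, the smallest that 3 against 3 mice allow. It stayed between -0.23 and -0.14 when single libraries were left out. Stab1 lies 35.0 Mb from Ptk2b on the same chromosome. Its 3′ end shares 112 bases with Nt5dc2 on the opposite strand, whose log2 fold change was -0.07 (adjusted p = 0.969). Whether counting used the strand was not given in the sources used here. Since sinusoidal endothelium also makes Stab1, a list of 5 endothelial markers was checked, which summed to 6.44 to 11.0 CPM in the WT and 7.62 to 10.9 CPM in the PYK2 KO libraries. Of these, Kdr passed the filter with 19 to 28 counts in each library, Stab2 had 0 to 12, Pecam1 0 to 6 and Cdh5 0 to 1, and Lyve1 had 0 in all of them. Their part in the Stab1 level was not tested.

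The cysteine-rich proteins were measured at very different depth. Cd163, the haemoglobin-haptoglobin receptor (chr6:124304656-124330527, plus strand), is a marker of many tissue macrophages but was close to absent from these cultures. It had 1, 2 and 2 counts in WT 1, 5 and 6 and 3, 2 and 4 counts in PYK2 KO 2, 3 and 4, and did not pass the low-count filter. The sums were 5 counts in WT (exact Poisson 95% interval 1.62 to 11.7) and 9 in PYK2 KO (4.12 to 17.1), intervals that overlap and cover counting error only. A difference was not detectable at this depth.

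Cd5l (chr3:87357881-87371073, plus strand), a secreted protein that inhibits apoptosis of macrophages and alters their lipid metabolism, had 1441, 1165 and 488 counts in WT 1, 5 and 6. The PYK2 KO libraries 2, 3 and 4 had 760, 838 and 989 counts. WT 1 and WT 5 were the highest libraries at 368 and 326 CPM, WT 6 was the lowest at 171 CPM, and the PYK2 KO values of 244, 290 and 295 CPM fell between them. The mean was 288 ± 104 CPM for WT and 276 ± 28.2 CPM for PYK2 KO cells, and the log2 fold change was -0.07 (SE 0.19, 95% interval -0.46 to 0.33, adjusted p = 0.993). Leaving out WT 6 gave -0.33 and leaving out WT 1 gave 0.14, and the sign also turned without WT 5 or PYK2 KO 2. Its coefficient of variation of 16.5% exceeded that of 94.2% of the tested genes.

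**Figure D2:**
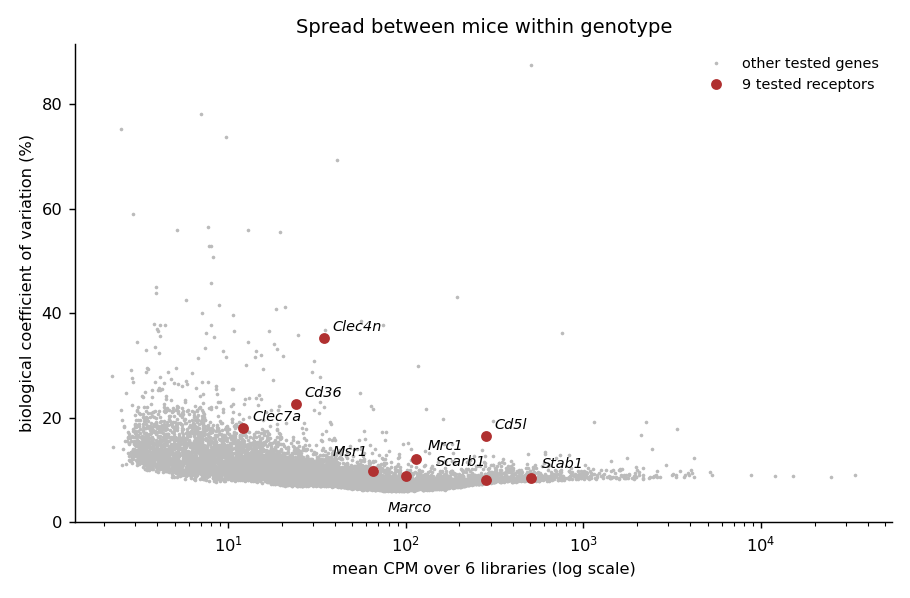
Biological coefficient of variation (percent) against mean CPM over the 6 libraries (log scale) for all 9815 tested genes, with the 9 tested members in red. Clec4n, Cd36, Clec7a and Cd5l lie above 94% of the genes, while Scarb1, Stab1 and Marco lie below the median of 9.07%.

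The 3 C-type lectin receptors all had higher means in PYK2 KO cells, and in none was the difference past the threshold. Mrc1 (chr2:14229392-14332057, plus strand) is the mannose receptor CD206, an endocytic receptor often used as a marker of alternatively activated macrophages. It stood at 130, 96.8 and 87.6 CPM in WT 1, 5 and 6 and at 107, 113 and 155 CPM in PYK2 KO 2, 3 and 4. PYK2 KO 4 and WT 1 were the highest libraries, and the genotypes overlapped. Means of 105 ± 22.4 and 125 ± 25.9 CPM gave a log2 fold change of 0.25 (SE 0.15, 95% interval -0.06 to 0.56, adjusted p = 0.898), which was 0.06 without PYK2 KO 4 and 0.44 without WT 1.

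Clec7a, which encodes the beta-glucan receptor Dectin-1 (chr6:129461591-129472779, minus strand, annotated by GENCODE as a polymorphic pseudogene), was the weakest of the tested members in counts. WT 1, 5 and 6 had 60, 26 and 22 counts and PYK2 KO 2, 3 and 4 had 35, 44 and 55, or 15.3, 7.28 and 7.71 CPM against 11.2, 15.2 and 16.4 CPM. WT 1 resembled the upper PYK2 KO libraries and the other WT libraries were the lowest. With means of 10.1 ± 4.52 and 14.3 ± 2.71 CPM the log2 fold change was 0.47 (SE 0.27, 95% interval -0.10 to 1.04, adjusted p = 0.896). It ranged from 0.27 without WT 5 to 0.93 without WT 1.

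Clec4n, which encodes Dectin-2 (chr6:123229843-123247021, plus strand), binds fungal mannans and signals through the Fc receptor gamma chain. It had 102, 55 and 52 counts in WT 1, 5 and 6, 62 and 70 counts in PYK2 KO 2 and 3, and 346 counts in PYK2 KO 4. The levels were 26.0, 15.4 and 18.2 CPM in WT and 19.9, 24.2 and 103 CPM in PYK2 KO libraries, so that PYK2 KO 4 alone stood apart and the remaining PYK2 KO libraries lay within the WT range. PYK2 KO 4 was 1.96 above the next library on the log2(CPM + 0.5) scale and 4.97 times the mean of the other 5. Ranked by how far PYK2 KO 4 stood above the next library, Clec4n came first of the 9815 tested genes, followed by Anxa1 with a log2 gap of 1.21. Counting the top library of each gene, whichever it was, 3 genes had a larger gap. The means were 19.9 ± 5.52 and 49.1 ± 46.8 CPM, and the log2 fold change was 1.31 (SE 0.45, 95% interval 0.35 to 2.28). edgeR gave p = 0.0109 before and 0.606 after adjustment, and the two-sided exact permutation test gave p = 0.3. Without PYK2 KO 4 the log2 fold change was 0.13 (adjusted p = 1.000 in edgeR). Cd36, Mrc1 and Clec7a were also highest in PYK2 KO 4, by 1.30-fold, 1.19-fold and 1.07-fold over the next library.

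**Figure D3:**
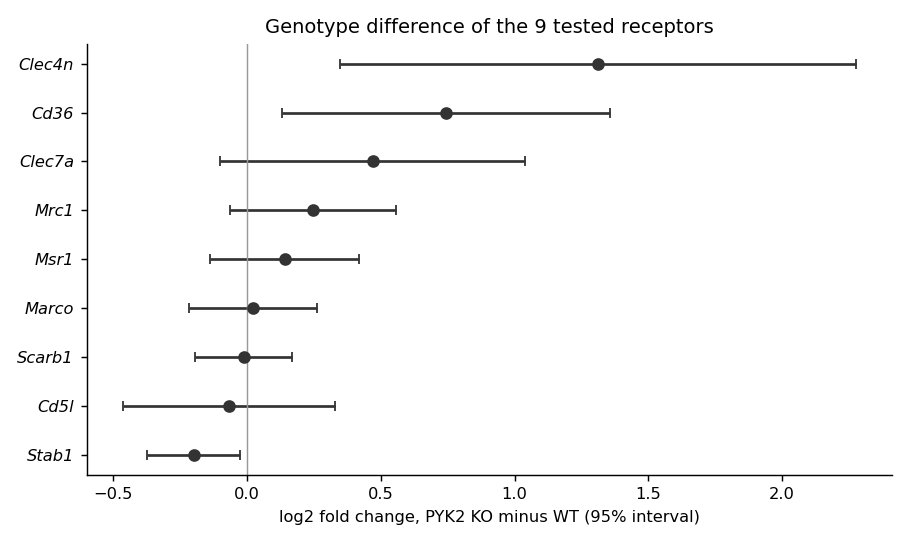
Log2 fold change of PYK2 KO over WT with its 95% interval for the 9 tested members, from the edgeR fit. The intervals of Clec4n and Cd36 lie above 0 and that of Stab1 below 0 without adjustment, and the remaining 6 include 0.

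**Figure D4:**
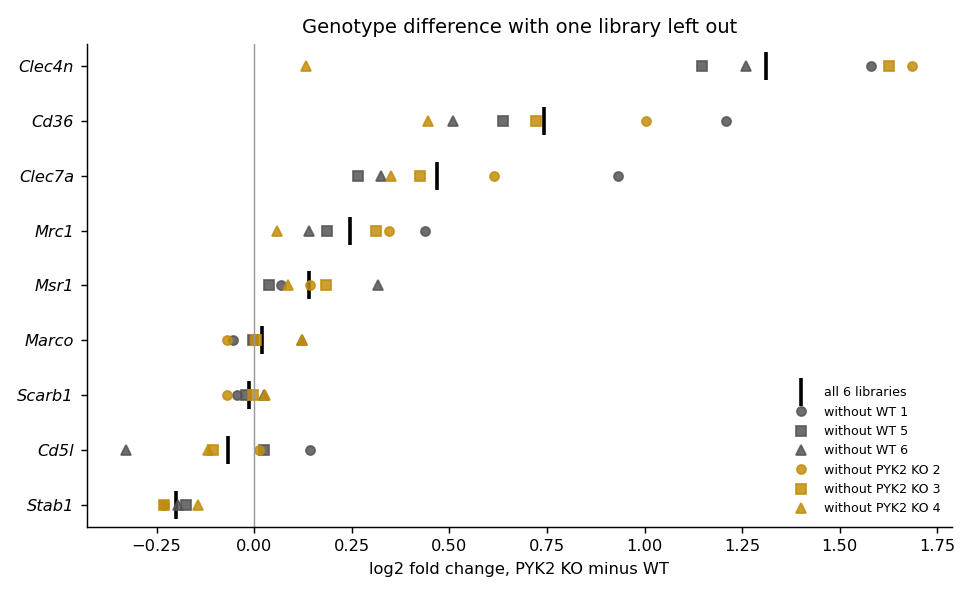
Log2 fold change of each tested member with all libraries and after leaving out each of the 6 libraries in turn. Clec4n drops from 1.31 to 0.13 without PYK2 KO 4, whereas Stab1 stays between -0.23 and -0.14.

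Several members shared an order of libraries that crossed genotype. For Cd36, Mrc1, Clec7a and Clec4n the 3 highest libraries were WT 1, PYK2 KO 3 and PYK2 KO 4, which was 4 of 9 tested members (44.4%) against 7.33% of all tested genes. Scarb1 had these libraries as the 3 lowest, as did 6.90% of all genes. That grouping had been noticed in earlier results of these counts, the labels give no batch for it, and both genotypes are in either side. The margin was narrow for Mrc1, with 113 CPM in PYK2 KO 3 and 107 CPM in PYK2 KO 2. With the grouping as a covariate the log2 fold changes were 0.45 for Cd36, 0.12 for Mrc1, 0.26 for Clec7a, 0.90 for Clec4n and -0.17 for Stab1, and no member passed the threshold. The grouping holds more PYK2 KO than WT libraries and matches the highest libraries of Cd36, Mrc1, Clec7a and Clec4n. Smaller values for these members were therefore largely fixed in advance. Of 8 markers of neutrophils 6 passed the filter, with 4 higher and 2 lower in PYK2 KO cells and 0 past the threshold, and the sum of all 8 was 180 to 229 CPM in WT 1, PYK2 KO 3 and PYK2 KO 4 and 127 to 147 CPM in the other 3 libraries. By genotype the sum was 127 to 180 CPM for WT and 133 to 229 CPM for PYK2 KO cells. S100a9 had 277, 107 and 97 counts in WT 1, 5 and 6 and 158, 269 and 346 counts in PYK2 KO 2, 3 and 4, with a log2 fold change of 0.85 (adjusted p = 0.537 in edgeR), and passed the threshold without the low-count filter. Without S100a9 the sum of the other 7 was 109, 97.4 and 113 CPM in WT 1, 5 and 6 and 82.8, 135 and 126 CPM in PYK2 KO 2, 3 and 4, with PYK2 KO 3, PYK2 KO 4 and WT 6 the highest libraries. Mpo had 6, 12 and 4 counts in WT 1, 5 and 6 and 11, 14 and 21 counts in PYK2 KO 2, 3 and 4, with a log2 fold change of 1.19 (adjusted p = 0.591) and no overlap in CPM between genotypes. It was the only 1 of the 6 tested neutrophil markers without overlap, beside 10.2% of all tested genes. The log2 fold changes of the other tested markers were 0.19 for Ngp, 0.10 for S100a8, -0.09 for Ltf and -0.26 for Camp. Ly6g had 0 counts in every library except 1 count in PYK2 KO 2. The part of the neutrophil markers in the receptor levels was not tested.

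**Figure D5:**
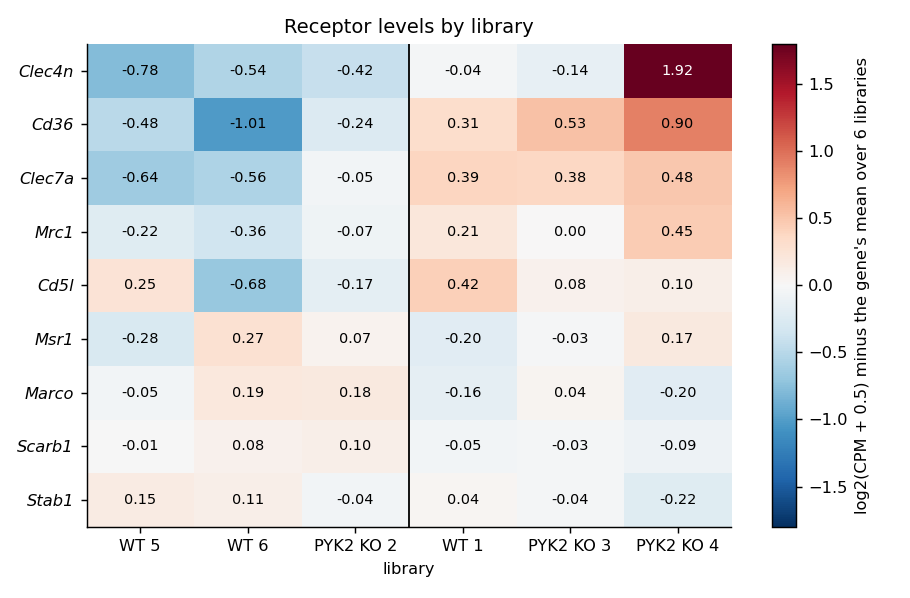
Log2 CPM of each tested member in each library, centred on the gene's mean over the 6 libraries. Cd36, Mrc1, Clec7a and Clec4n are highest in PYK2 KO 4, PYK2 KO 3 and WT 1 in some order, and Cd5l has its lowest value in WT 6.

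The gene most like each member over the 6 libraries, by Pearson's r of log2(CPM + 0.5), is given as a description, since with 6 points and 9815 genes a high r is easily found. For Clec4n it was Anxa1 (r = 0.993), the phospholipid-binding annexin A1, with 430, 309 and 250 counts in WT 1, 5 and 6 and 312, 344 and 927 counts in PYK2 KO 2, 3 and 4. PYK2 KO 4 therefore stood apart for both. The nearest gene was Jade1 for Cd36 (0.995), 4833439L19Rik for Clec7a (0.996) and Capn7 for Mrc1 (0.992). For the remaining members it was Agpat2 with Stab1 (0.991), Gps2 with Cd5l (0.993), Ttll12 with Scarb1 (0.991), Rab43 with Msr1 (0.990) and Bcl2l1 with Marco (0.988).

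The other genes of these families and pathways were read from 5 lists with 79 genes, of which 52 were tested and 0 passed the threshold with edgeR, DESeq2 or limma. Without adjustment 3 had a p-value under 0.05 with edgeR (5.77%, near the 6.03% of all tested genes), 3 with DESeq2 and 4 with limma. The share of all genes is given for edgeR only. Among 18 other scavenger receptors 6 were tested, and 6 had 0 counts in all libraries. Of those tested, 3 had a higher and 3 a lower fitted level, with a median of -0.01 and the most distant value at -0.17 for Scarb2 (adjusted p = 0.896), a lysosomal membrane receptor related to Cd36 and Scarb1. Cxcl16, a chemokine whose membrane form binds oxidized lipoprotein, was at -0.11, and Scarf1 at 0.11.

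Among 24 other C-type lectin receptors 9 were tested and 8 had 0 counts in all libraries. The fitted level was higher in 8 and lower in 1, with a median of 0.20 beside 0.14 for the members and 0.0019 for all genes. Clec4e, which encodes Mincle, a receptor for mycobacterial glycolipids that uses the same adaptor as Clec4n, had 196, 204 and 221 counts in WT 1, 5 and 6 and 247, 232 and 291 counts in PYK2 KO 2, 3 and 4. In CPM the PYK2 KO libraries (79.2, 80.4 and 86.7) all lay above the WT libraries (50.1, 57.1 and 77.5), with a log2 fold change of 0.43 (SE 0.13, adjusted p = 0.497). It passed the threshold without WT 6, at 0.62 with an adjusted p = 0.0347, and its adjusted p over all alternatives ran from 0.0156 to 1.000 in edgeR, DESeq2 and limma. Unlike Clec4n, it was not set by PYK2 KO 4 alone. Clec4a1, a lectin of the same gene cluster, had the lower values in PYK2 KO cells, with 209, 175 and 180 CPM in WT 1, 5 and 6 and 148, 173 and 152 CPM in PYK2 KO 2, 3 and 4. Its log2 fold change was -0.26 (SE 0.09, adjusted p = 0.619) without overlap between genotypes. Of the 9 tested lectins, 2 were higher (Clec4e and Clec5a) and 1 was lower (Clec4a1) without overlap, beside 10.2% of all tested genes. Clec12a, an inhibitory receptor for uric acid crystals, was at 0.31 (adjusted p = 0.838).

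The 10 genes of signalling below the Dectins were all tested, with 3 higher, 7 lower and a median of -0.02. The kinase gene Prkcd was at 0.13, the phospholipase gene Plcg2 at 0.11 and the exchange factor gene Vav3 at 0.18, each with overlapping genotypes. The 17 genes of lipid handling after uptake were all tested as well, with 6 higher, 11 lower and a median of -0.03. Fabp4, a fatty acid carrier, was at 0.17 (adjusted p = 0.880), Soat1, which esterifies cholesterol, at 0.16 (0.892), and Nr1h3, the liver X receptor alpha, at -0.37 (0.896).

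Of 10 transcription factors known to act on macrophage receptor genes, 5 had a higher and 5 a lower level, with a median of 0.01. Stat6, the factor that IL-4 activates, had no overlap between genotypes, at 182, 187 and 165 CPM in WT 1, 5 and 6 and 151, 154 and 147 CPM in PYK2 KO 2, 3 and 4, and a log2 fold change of -0.24 (SE 0.08, adjusted p = 0.583). It was the only 1 of the 10 without overlap, beside 10.2% of all tested genes. Cebpa was at 0.22 (0.880) and Tfec at 0.31 (0.903), each with overlap.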

How the data were processed

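RNA-seq was done on BMDMs of 3 WT and 3 PYK2 KO mice. The authors ran the UTAP pipeline to map reads and assign them to genes, and the deposited counts are whole numbers that were not normalized. The submitters' processing notes name cutadapt, STAR and mm10. Whether molecular identifiers were collapsed is not given in the sources used here, so counts may not be independent molecules and intervals cover counting error only. Columns were matched to mice by name.

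Genes were filtered (filterByExpr), scaled by TMM (also for CPM) and tested on genotype alone with the quasi-likelihood F test of edgeR 4.0.16 in R 4.3.3 over all 9815 genes that passed, with a threshold of 0.05 on the Benjamini-Hochberg adjusted p-value. SEs were computed from the log2 fold change and the F statistic. The test was also run on simulated counts, with means and spread taken from these data, and the outcome is not given here. Alternatives were other normalizations and filters, the likelihood ratio test, DESeq2 1.42.0, limma 3.58.1 (voom), a library grouping as a covariate, and leaving out each library. The p-values of edgeR, DESeq2 and limma set the difference between genotypes against the spread between these mice, estimated partly from all genes.

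The members, lists and the library grouping were chosen with earlier results of these data known. Every member is named, together with the 3 genes of smallest p-value in each list, the nearest gene to each member and, chosen after their values were seen, neutrophil and endothelial markers. Positions are from GENCODE M21 (GRCm38) and promoters from RefSeq (GRCm38.p6). Protein sequences were not analysed here.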

Additional observations from a re-analysis of the deposited data

How the results depend on the processing

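No paired analysis was possible because no replicate number occurs in both genotypes. The count of members past the threshold was 0 with every other setting and 2 without a low-count filter (Cd36 at an adjusted p = 0.00226 and Clec4n at 1.16e-15 in edgeR, against up to 1.000 over the alternatives of each), where 0.852% of 18659 genes were called. Their log2 fold changes hardly moved, but the SE was 0.15 for Clec4n and 0.17 for Cd36 without the filter. In the fit reported above these SEs were 0.45 and 0.29. The SEs of Stab1 and Scarb1 were slightly larger without the filter, at 0.088 and 0.091 against 0.082 and 0.085. The cause was not tested. Among the other genes of these families and pathways, 1 (Clec4e) passed without the filter, and 0 to 1 did when single libraries were left out. Of 135 values for single members under the alternatives, 124 held their sign and call, 9 turned sign and 2 passed the threshold, Cd36 at 0.74 and Clec4n at 1.31 without the filter. The 9 were close to 0 in the fit reported above: Marco ran from -0.070 to 0.12, Cd5l from -0.33 to 0.14 and Scarb1 from -0.070 to 0.029 with single libraries left out, and Scarb1 was 0.027 with the library grouping as a covariate. The median over members, 0.14, ran from 0.038 (without WT 5) to 0.18 with single libraries left out, and was 0.087 without PYK2 KO 4. With 3 mice per genotype the intervals of Clec4n, Cd36 and Clec7a are wide, and the SE of Clec4n was 0.45 with and 0.22 without PYK2 KO 4. Cd163 was fitted only without the filter, at 0.92 (SE 0.88, adjusted p = 0.841 in edgeR).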
